A study of Mus musculus with 8 samples.

Results

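The SOX transcription factor genes described here are Sox2, Sox4, Sox5, Sox6, Sox9, Sox10, Sox11 and Sox12, 8 of the 21755 protein-coding mouse genes on the chromosomes that carry peaks. Each gene was given by name, and its chromatin was taken as the ATAC-seq peaks that overlap the gene body or lie within 20 kb of one of its transcription start sites (TSSs). ATAC-seq marks open chromatin by the places where the Tn5 transposase can insert sequencing adapters. The 8 libraries came from cultured lines of MMTV-PyMT mammary tumors, which arise in FVB/N mice from a polyoma middle T oncogene driven by a mammary tumor virus promoter. Every group therefore carries the PyMT transgene. The WT cells have intact Lats1, a kinase of the Hippo pathway, and the Lats1-CKO cells come from tumors in which Lats1 was deleted in the epithelial compartment. Cells were sorted as luminal (high EpCAM, high CD49f) or basal (low EpCAM, high CD49f, called basal-like by the study) and expanded briefly. There were 2 libraries in each of 4 groups, with BM1 and BM5 from WT luminal, BM2 and BM6 from WT basal, BM3 and BM7 from Lats1-CKO luminal, and BM4 and BM8 from Lats1-CKO basal cells. The labels give no age of the animals and do not tie libraries to tumors, so p-values measure only the spread between these libraries.

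SOX proteins bind DNA through a high-mobility-group domain that fits into the minor groove and bends the helix, and they usually act together with partner factors. The family is divided into groups by similarity. Sox9 and Sox10 belong to the SoxE group, Sox5 and Sox6 to SoxD, whose members lack an activation domain of their own and often work beside SoxE proteins, Sox4, Sox11 and Sox12 to SoxC, and Sox2 to SoxB1. In the mammary gland Sox9 is known for luminal progenitors, and Sox10 for stem, progenitor and basal cells and for basal-like breast cancer. Sox4 is known for the epithelial-mesenchymal transition.

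The libraries differed in how many peaks they held. BM3 had 14753 peaks and the other 7 had between 51497 and 99022. The lists hold no read counts, so the depth behind a peak is unknown, and the score of a peak was used only as its percentile among the peaks of the same library. A percentile of 90 means that the peak scored above about 90% of that library's peaks, and 0 was entered where no peak was called. In bulk libraries, an opening present in fewer cells and a weaker opening in every cell cannot be told apart. The window of Lats1 itself held 11 peaks in BM1, 11 in BM2, 6 in BM5 and 8 in BM6 of the WT libraries, and 0 in BM3, 8 in BM4, 10 in BM7 and 10 in BM8. The position of the deletion within the gene was not used here, so these peaks do not check it. Among 15 luminal marker genes, those whose TSS had a peak no farther than 1 kb away numbered 15, 13, 8 and 14 in the luminal libraries BM1, BM5, BM3 and BM7 and 12, 10, 7 and 7 in the basal libraries BM2, BM6, BM4 and BM8, and among 12 basal markers they numbered 4 to 9 in luminal and 6 to 8 in basal libraries. Trp63, a defining factor of basal cells, had no promoter peak in any library. Of 7 fibroblast markers, 0 to 2 had a promoter peak in luminal and 3 to 4 in basal libraries, and of 5 immune markers 0 to 3 and 1 to 4. Lum, Col3a1 and Cd3e had none in any library.

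The windows of the 8 SOX genes held 546 of the 546932 peaks. Per 10000 peaks of the library, the WT luminal libraries BM1 and BM5 held 10.04 and 8.85, the WT basal libraries BM2 and BM6 held 11.9 and 11.3, the Lats1-CKO luminal libraries BM3 and BM7 held 10.2 and 9.42, and the Lats1-CKO basal libraries BM4 and BM8 held 7.30 and 11.4. All 8 genes had a peak in 6 libraries, 7 of them in BM4, where Sox11 had none, and 4 of them in BM3, where Sox2, Sox4, Sox6 and Sox10 had none. The genes differed in how densely they were covered. Sox9 had a mean of 20.6 peaks per 100 kb of window, more than 99.6% of protein-coding genes, and Sox12 had 12.8, more than 93.9%. The Sox12 value includes a region, present in all 8 libraries, over the TSS of another gene, Zcchc3. Sox4 (6.87), Sox10 (5.83), Sox2 (5.62) and Sox11 (5.31) lay above the median of 4.50 over all genes, from more than 57.1% (Sox11) to more than 69.3% (Sox4) of genes. The long genes Sox6 (3.08) and Sox5 (2.80) lay below that median.

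Lats1-CKO and WT libraries were compared, and luminal and basal libraries, to ask whether open chromatin at these genes follows genotype or cell state. Over all 8 libraries, no SOX gene had a peak number that separated the 4 Lats1-CKO from the 4 WT libraries, where 3.85% of the 18522 genes tested did, and none separated luminal from basal libraries, where 2.02% did. The highest score percentile in the window separated no SOX gene either, against 1.12% of all genes by genotype and 1.21% by population. The two-sided exact permutation test over libraries, whose smallest p is 0.0286 here, gave p from 0.143 (Sox4) to 1.0 (Sox9) for peak number by genotype and from 0.0857 (Sox5) to 0.743 (Sox12) by population. For the highest percentile the exact permutation p ran from 0.286 to 0.714 by genotype and from 0.257 to 1.0 by population. After Benjamini-Hochberg adjustment over all genes no gene passed 0.05 in these exact permutation tests, and the smallest adjusted p was 0.742. The numbers of genes at an unadjusted p below 0.05 were 713 and 375 for peak number by genotype and population, and 208 and 224 for the highest percentile. With 4 against 4 libraries these p-values do not show that the groups are alike.

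**Figure D1:**
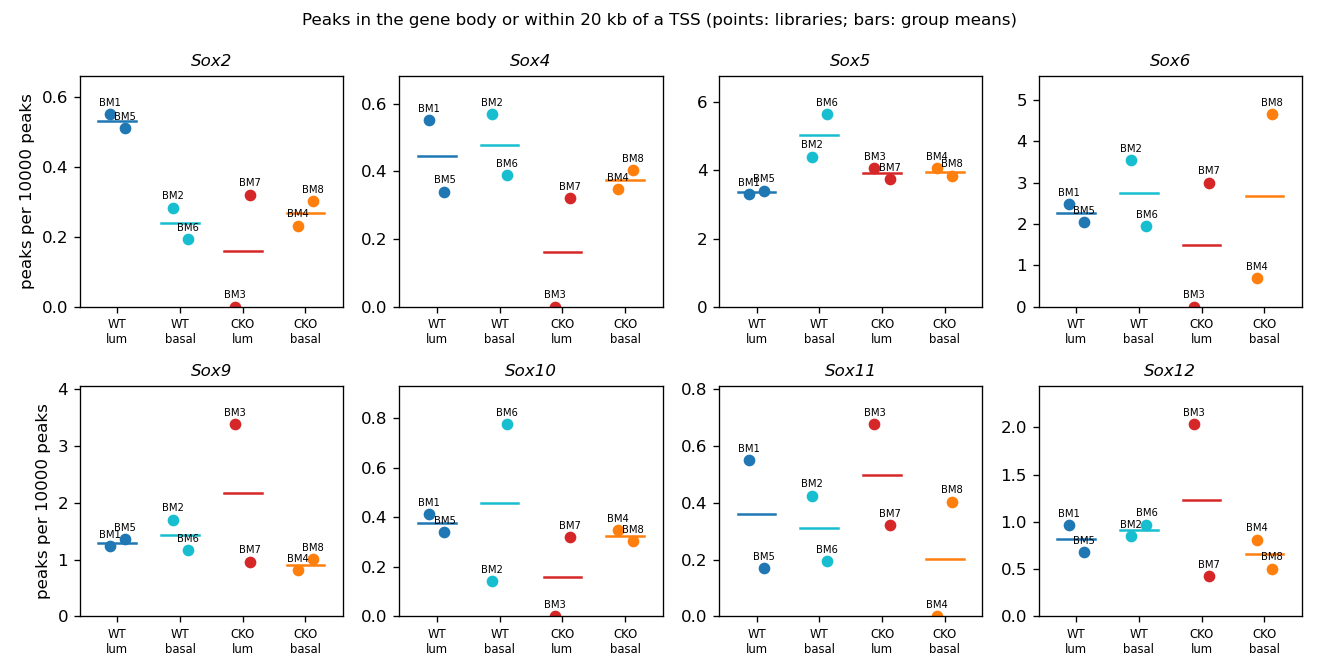
Peaks in the window of each SOX gene per 10000 peaks of the library (y axis, from 0), by group (x axis; lum, luminal; CKO, Lats1-CKO); points are the libraries BM1 to BM8 and bars the means of 2 libraries. BM3 lies at 0 for Sox2, Sox4, Sox6 and Sox10 and highest of all libraries for Sox9 (3.39), Sox11 (0.678) and Sox12 (2.03).

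Sox10, the SoxE factor of neural crest, glia and mammary stem and basal cells (chr15:79154908-79165240, minus strand, GRCm38/mm10), carried few peaks. They numbered 3 (BM1) and 2 (BM5) in WT luminal and 1 (BM2) and 4 (BM6) in WT basal libraries, and 0 in BM3, 3 in BM7, 3 in BM4 and 3 in BM8 among Lats1-CKO libraries, and none was among the 10000 highest-scoring peaks of its library. The counts of the genotypes overlapped (0.418 ± 0.265 per 10000 peaks in WT and 0.243 ± 0.163 in Lats1-CKO, SD, n = 4 each, exact permutation p = 0.343). None of the 6 regions formed by merging its peaks lay within 1 kb of a Sox10 TSS. Of these, 2 are printed below from the GRCm38 reference, plus strand, the intronic one as 300 of its 369 bases, because Sox10 had its highest percentile in every WT library at the upstream one and its highest in BM8 at the intronic one. Capitals mark the letters CAGGTG (an E-box, written CACCTG where it lies on the minus strand) and TGANTCA (the AP-1 motif).
Sox10 upstream, chr15:79176944-79177210: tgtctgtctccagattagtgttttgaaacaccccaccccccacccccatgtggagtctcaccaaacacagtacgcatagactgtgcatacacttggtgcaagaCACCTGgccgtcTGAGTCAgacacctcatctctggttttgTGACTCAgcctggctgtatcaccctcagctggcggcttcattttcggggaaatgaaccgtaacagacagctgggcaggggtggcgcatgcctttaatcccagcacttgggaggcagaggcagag
Sox10 intron, chr15:79162262-79162561: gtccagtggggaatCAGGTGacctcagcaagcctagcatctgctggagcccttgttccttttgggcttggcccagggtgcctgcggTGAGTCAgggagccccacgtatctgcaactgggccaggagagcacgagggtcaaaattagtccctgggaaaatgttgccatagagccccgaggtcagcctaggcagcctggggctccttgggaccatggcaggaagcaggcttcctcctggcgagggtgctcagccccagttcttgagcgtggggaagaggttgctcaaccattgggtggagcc

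The upstream region lies 11.8 kb before the nearest Sox10 TSS, inside the transcript Gm10863, a non-coding gene whose own TSS is nearer, and 79 of its 267 bases are repeat-masked. Its percentile was 85.2 (BM1) and 66.7 (BM5) in WT luminal and 84.3 (BM2) and 56.2 (BM6) in WT basal libraries. In the Lats1-CKO libraries it was 0 in BM3, 37.8 in BM7, 16.7 in BM4 and 0 in BM8. Every WT library, luminal or basal, thus lay above every Lats1-CKO library. The means were 73.1 ± 14.1 in WT and 13.6 ± 17.9 in Lats1-CKO (SD, n = 4 each), a difference of 59.5 percentile points lower in Lats1-CKO (exact permutation p = 0.0286, the smallest possible, adjusted p = 0.904 over 101587 regions). It was the only one of 56 SOX regions with peaks in enough libraries that separated the genotypes in this way (1.79%), and 1.26% of such regions genome-wide did so, 1.06% with WT higher, so the count for SOX regions is near that background. No SOX region was present in every library of a genotype and in no library of the other, a pattern of 0.22% of regions. The exact permutation p rose to 0.0571 without BM1 or without BM2, and to 0.143 where a peak had to cover at least 50% of the region.

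Without BM3, the Lats1-CKO mean of the upstream region was 18.2 ± 18.9 (n = 3) and the WT libraries still lay above it (exact permutation p = 0.0286, adjusted p = 0.428), where 0.868% of regions had WT higher. BM4, BM7 and BM8 had the most peaks of all libraries, and percentiles in them were higher in general: without BM3, 13.6% of regions had Lats1-CKO higher. With each library but BM3 reduced to its 51497 highest-scoring peaks, the region had a peak in all 4 WT libraries (79.1, 62.0, 78.6 and 56.2 in BM1, BM5, BM2 and BM6) and in none of BM4, BM7 and BM8, a pattern that 0.943% of regions shared. In BM8 a peak at the 60.5 percentile lay beside it, 10.9 kb from the TSS, where no other library had one.

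The intron region lies 2.04 kb from the nearest Sox10 TSS. Its percentile was 19.2 (BM1) and 0 (BM5) in WT luminal and 0 (BM2) and 4.48 (BM6) in WT basal libraries, and in the Lats1-CKO libraries 0 in BM3, 40.4 in BM7, 60.7 in BM4 and 78.5 in BM8. BM3, with no Sox10 peak at all, overlapped the WT libraries, and the 8 libraries did not differ beyond their spread (44.9 ± 33.7 against 5.93 ± 9.12, SD, n = 4 each, exact permutation p = 0.143). Without BM3 the groups did not overlap (59.9 ± 19.1, n = 3, against 5.93 ± 9.12, n = 4, exact permutation p = 0.0286, adjusted p = 0.428), as for 13.6% of all regions with Lats1-CKO higher. With equal peak numbers the intron region lost this order, at 0 in BM7 against 4.48 in BM6. The region downstream of the gene, 15.7 kb from the TSS and inside Polr2f, a subunit gene of RNA polymerases, had percentiles of 37.3, 0, 0 and 37.5 in BM1, BM5, BM2 and BM6, and of 0, 45.3, 76.7 and 59.6 in BM3, BM7, BM4 and BM8. It too was higher in every Lats1-CKO library other than BM3 than in WT (exact permutation p = 0.0857 without BM3, adjusted p = 0.428). With equal peak numbers that order was lost as well, at 0.632 in BM7 against 37.5 in BM6. The downstream region was chosen after its values were seen. Of 6 marker genes of Schwann cells and melanocytes, other cells known for Sox10, 3 had a promoter peak in each WT library, and 2, 2, 2 and 3 in BM3, BM7, BM4 and BM8. Tyr had none in any library, and the part of such cells in the Sox10 values was not tested.

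**Figure D2:**
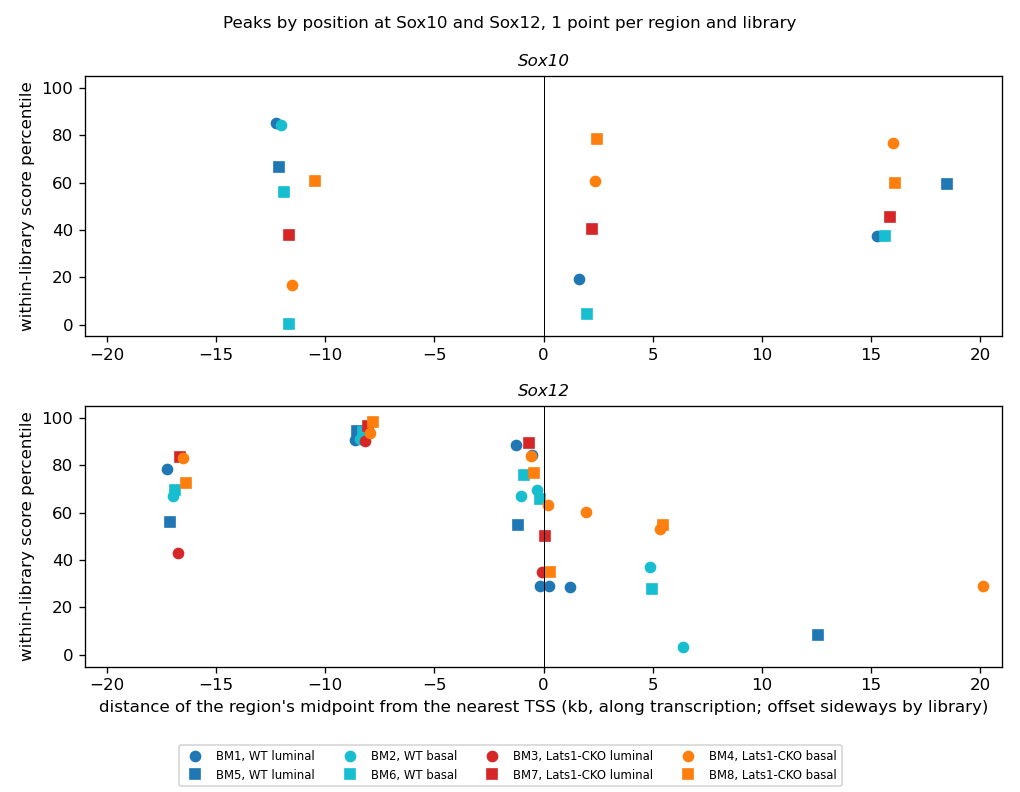
Peaks at Sox10 and Sox12 by distance of the region's midpoint from the nearest TSS of the gene (x axis, kb, positive along transcription) and within-library score percentile (y axis); each point is 1 region in 1 library, shifted slightly sideways by library. At Sox10 the points 11.8 kb upstream are led by the 4 WT libraries, and at Sox12 the points 5.04 kb downstream belong to basal libraries, in WT and in Lats1-CKO.

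Sox9, the SoxE factor of cartilage and of luminal progenitors (chr11:112782224-112787760, plus strand), had the most peaks of the genes with a short window. They numbered 9 (BM1) and 8 (BM5) in WT luminal and 12 (BM2) and 6 (BM6) in WT basal libraries, and 5 in BM3, 9 in BM7, 7 in BM4 and 10 in BM8. Sox9 kept 5 peaks in the short list of BM3, so per 10000 peaks BM3 stood far above the rest at 3.39, and the other libraries lay between 0.811 and 1.70. With BM3 the genotypes overlapped (1.54 ± 1.23 in Lats1-CKO and 1.37 ± 0.238 in WT, SD, n = 4 each, exact permutation p = 1.0). Without BM3 every Lats1-CKO library lay below every WT library, at 0.928 ± 0.104 (n = 3) against 1.37 ± 0.238 (n = 4), but the exact permutation p was 0.0571 and the adjusted p 0.501. At the same setting 8.08% of genes had WT higher. With equal peak numbers and no BM3, Sox9 did not separate the genotypes (exact permutation p = 0.714).

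The peaks of Sox9 were led by 2 wide regions with a peak in all 8 libraries. The promoter region (chr11:112781419-112782531) spans 1113 bp over the TSS, with percentiles of 96.9 and 92.9 in BM1 and BM5, 96.6 and 90.7 in BM2 and BM6, 91.6 in BM3, 99.999 in BM7, 86.3 in BM4 and 99.999 in BM8. The upstream region, 14.7 kb before the TSS in the non-coding gene BC006965, spans 1191 bp and is wider than 99.99% of the merged regions, whose median is 153 bp. It was chosen after its values were seen, as the strongest SOX region of BM7 and BM8 away from a promoter. The 300 bases printed, plus strand, lie in its left part and are the stretch that the peaks of the libraries covered most. None of the 9 motifs searched is in these letters, whereas the central 200 bp, which lie outside them, hold 2 matches of GGAATG (TEAD) and 1 of CAGGTG.
Sox9 upstream, chr11:112766981-112767280: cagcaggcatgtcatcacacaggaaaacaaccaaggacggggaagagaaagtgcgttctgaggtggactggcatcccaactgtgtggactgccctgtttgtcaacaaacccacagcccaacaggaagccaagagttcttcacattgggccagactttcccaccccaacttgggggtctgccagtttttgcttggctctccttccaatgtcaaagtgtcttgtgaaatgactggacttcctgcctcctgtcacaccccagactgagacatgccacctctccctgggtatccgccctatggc

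The percentile of the upstream region was 98.5 (BM1) and 99.1 (BM5) in WT luminal and 97.0 (BM2) and 91.2 (BM6) in WT basal libraries, and 66.4 in BM3, 99.956 in BM7, 38.1 in BM4 and 99.996 in BM8. The WT libraries lay close together and the Lats1-CKO libraries on both sides of them, 2 above and 2 below (76.1 ± 29.9 against 96.4 ± 3.604, SD, n = 4 each, exact permutation p = 0.429). BM7 and BM8, which differ in population, thus ranked both Sox9 regions above nearly all their other peaks, and BM4, of the same group as BM8, did not. The highest percentile in the Sox9 window was higher in both WT luminal libraries (98.5 and 99.1) than in both WT basal libraries (97.0 and 91.2), an order that 2 against 2 libraries cannot test. A downstream region 6.28 kb from the TSS, chosen after its values were seen, was the third with a peak in all 8 libraries, at percentiles from 30.0 in BM4 to 91.9 in BM1.

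Sox5 and Sox6, the long SoxD genes of cartilage and oligodendrocyte development, carried most of the regions. Sox5 (chr6:143828425-144781977, minus strand) held 24 (BM1) and 20 (BM5) peaks in WT luminal and 31 (BM2) and 29 (BM6) in WT basal libraries, and 6 in BM3, 35 in BM7, 35 in BM4 and 38 in BM8. Per 10000 peaks the WT luminal libraries were lowest (3.30 in BM1 and 3.40 in BM5), the WT basal libraries highest (4.40 in BM2 and 5.63 in BM6), and the Lats1-CKO libraries lay between them (4.07 in BM3, 3.74 in BM7, 4.06 in BM4 and 3.84 in BM8). By this scaled number Lats1-CKO lay above WT in luminal cells and below WT in basal cells, with no overlap in either. Orders of 2 against 2 libraries cannot be tested, and the share of all genes with such orders was not counted. Unscaled, the genotypes overlapped in luminal libraries, and Lats1-CKO was higher in basal ones. The luminal mean was 3.63 ± 0.348 and the basal mean 4.48 ± 0.801 (SD, n = 4 each, exact permutation p = 0.0857, adjusted p = 1.0). Without BM3 all basal libraries lay above all luminal ones, with means of 3.48 ± 0.232 (n = 3) and 4.48 ± 0.801 (n = 4, exact permutation p = 0.0571), as did 2.51% of genes. With equal peak numbers and no BM3, Sox5 did not separate the populations (exact permutation p = 0.343).

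Peaks of Sox5 lay almost wholly in introns, with 74 of 77 regions there. The region with the highest mean percentile (chr6:143858567-143858857, intron) was present in all 8 libraries, at 96.9 in BM1, 98.9 in BM5, 99.8 in BM2, 97.5 in BM6, 78.2 in BM3, 98.4 in BM7, 96.6 in BM4 and 95.6 in BM8. It was at 95.6 or above in 7 libraries and lowest in BM3. A wide intronic region (chr6:144166145-144166795, 651 bp), chosen after its values were seen, reached 91.7 in BM1 and 94.0 in BM5, 98.5 in BM2 and 95.6 in BM6, 95.6 in BM7, 96.2 in BM4 and 98.2 in BM8, with no peak in BM3. The region nearest to a TSS (chr6:144209470-144209854) was absent from BM1, BM2 and BM3 and lay between 32.7 and 86.6 in the other 5. A Sox5 intron region (chr6:144297064-144297526), chosen after its values were seen, had percentiles of 0 (BM1) and 0 (BM5) in WT luminal and 29.3 (BM2) and 0 (BM6) in WT basal libraries, and 0 in BM3, 47.6 in BM7, 54.9 in BM4 and 94.3 in BM8. Without BM3 it was higher in every Lats1-CKO library (exact permutation p = 0.0286, adjusted p = 0.428), as were 13.6% of regions.

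Sox6 (chr7:115470872-116038796, minus strand) had very different numbers of peaks in its libraries. It held 18 (BM1) and 12 (BM5) peaks in WT luminal and 25 (BM2) and 10 (BM6) in WT basal libraries, and 0 in BM3, 28 in BM7, 6 in BM4 and 46 in BM8. BM4 and BM8, the Lats1-CKO basal pair with lists of 86279 and 99022 peaks, lay at 0.695 and 4.65 peaks per 10000, the lowest value above 0 and the highest. The genotypes did not differ beyond that spread (2.08 ± 2.13 against 2.50 ± 0.735, SD, n = 4 each, exact permutation p = 0.743). The strongest region (chr7:115844401-115844755, 1.53 kb from an inner TSS and over an exon) had percentiles of 96.9 in BM1, 91.1 in BM5, 96.3 in BM2, 87.1 in BM6, 97.4 in BM7, 42.5 in BM4 and 97.8 in BM8, and no peak in BM3. BM4 was again far below its group. The region nearest to a TSS (chr7:115824682-115825000) had a peak in 4 libraries, at 27.8 in BM1, 18.9 in BM2, 82.4 in BM7 and 32.3 in BM8.

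**Figure D3:**
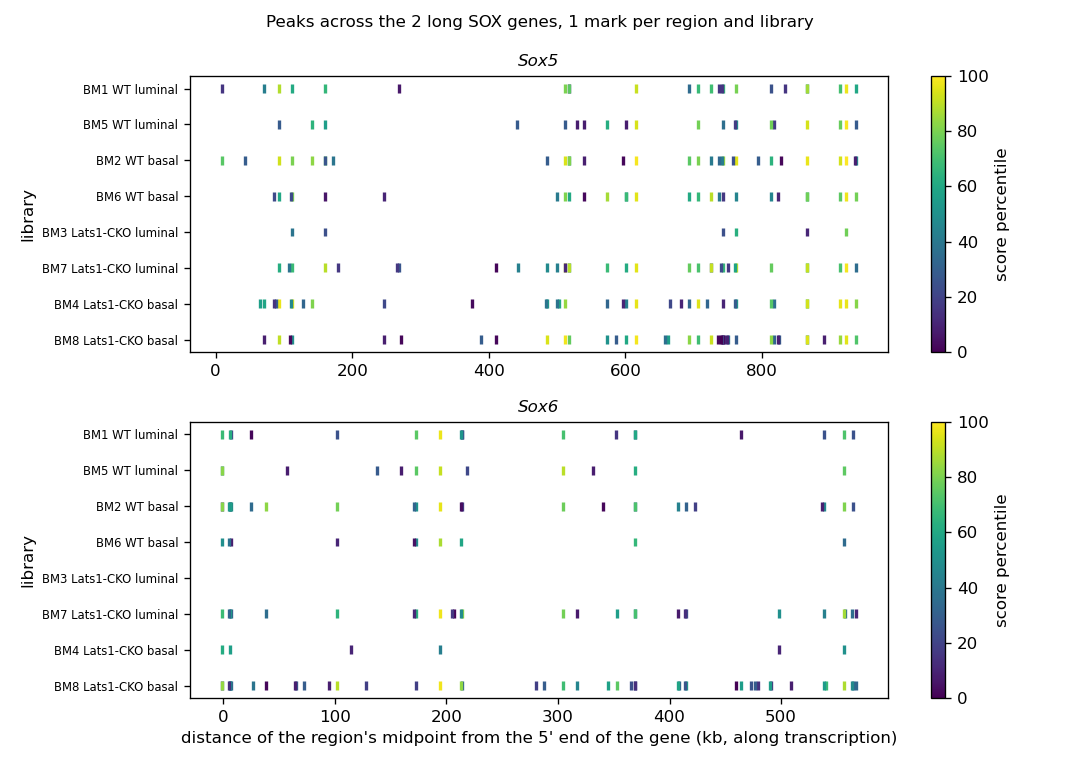
Peaks along Sox5 and Sox6 in each library (rows, by group) by distance from the 5' end of the gene (x axis, kb, along transcription); each mark is 1 region and its colour the within-library score percentile. Sox6 has 0 marks in BM3 and few in BM4 beside many in BM8, and the strongest Sox5 region is marked in every library.

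Among the SoxC genes, Sox12 (chr2:152393611-152398063, minus strand), a widely expressed member, had peaks in every library. It held 7 peaks in BM1, 4 in BM5, 6 in BM2, 5 in BM6, 3 in BM3, 4 in BM7, 7 in BM4 and 5 in BM8. Its strongest region, 8.23 kb upstream (chr2:152406153-152406433), had percentiles of 90.8, 94.6, 91.3 and 94.0 in BM1, BM5, BM2 and BM6, and of 90.1, 96.5, 93.7 and 98.4 in BM3, BM7, BM4 and BM8. The 8 libraries spanned 90.1 to 98.4, and BM3, despite its short list, was not set apart. The region nearest to the TSS (chr2:152398074-152398285) ranged from 0 in BM5 to 84.4 in BM1 and was present in 7 libraries.

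A short region past the 3′ end of Sox12, 5.04 kb from its nearest TSS, was present in all 4 basal libraries and in no luminal one. Its percentile was 37.1 in BM2, 27.8 in BM6, 53.2 in BM4 and 54.8 in BM8, and 0 in BM1, BM5, BM3 and BM7. The population means were 43.2 ± 13.04 and 0 (SD, n = 4 each). The exact permutation p was 0.0286, the smallest possible (adjusted p = 1.0). This p was fixed by the choice of the region, which was named for its presence pattern, with 0 entered where no peak was called. It was the only one of the 56 SOX regions with peaks in enough libraries that had this pattern in either direction (1.79%). Of such regions genome-wide, 0.305% had it, and 166 regions were in all basal and no luminal libraries. That pattern by itself separates the populations by percentile, and no other SOX region separated them, where 1.8% of regions did. The pattern holds by definition without BM3, where 0.225% of regions were in all basal and no luminal libraries. It was kept with equal peak numbers, where 0.373% of regions had it (13.9 in BM2, 27.8 in BM6, 21.6 in BM4 and 13.1 in BM8). The number of fibroblast markers with a promoter peak, of 7, moved with the same groups, at 4, 3, 4 and 4 in BM2, BM6, BM4 and BM8 and 2, 2, 0 and 2 in BM1, BM5, BM3 and BM7, with Lum and Col3a1 at none, and its part in this and the other values by population was not tested. In each of these basal libraries the peak was of low or middling score, and among peaks above the library's median score the pattern was lost (exact permutation p = 0.429). The region is printed because its presence follows the sort in both genotypes, and none of the 9 motifs is in its letters.
Sox12 downstream, chr2:152392929-152393081: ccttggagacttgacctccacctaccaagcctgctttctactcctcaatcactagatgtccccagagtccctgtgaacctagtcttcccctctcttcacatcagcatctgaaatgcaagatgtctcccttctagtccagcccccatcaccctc

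Sox4 (chr13:28948919-28953713, minus strand), the SoxC factor of lymphocyte development and mesenchymal transition, held 4 peaks in BM1, 2 in BM5, 4 in BM2, 2 in BM6, 0 in BM3, 3 in BM7, 3 in BM4 and 4 in BM8. The promoter region (chr13:28953602-28954042) reached 79.8 in BM1, 88.8 in BM5 and 77.6 in BM7 of the luminal libraries, with no peak in BM3. In the basal libraries it reached 62.2 in BM2, 64.8 in BM6, 53.2 in BM4 and 66.7 in BM8. The 3 luminal libraries with a peak all lay above the 4 basal ones, and BM7 was the only Lats1-CKO library among them. With BM3 the means were 61.6 ± 41.3 and 61.7 ± 5.98 (SD, n = 4 each, exact permutation p = 1.0), and without it 82.1 ± 5.89 (n = 3) and 61.7 ± 5.98 (n = 4, exact permutation p = 0.0286, adjusted p = 1.0). Without BM3, 2.7% of regions were higher in every luminal library. With equal peak numbers and no BM3 the order was lost, at 59.4 in BM7 against 64.8 in BM6. A region 4.80 kb upstream, chosen after its values were seen, was higher in Lats1-CKO without BM3 (40.8, 39.0 and 60.3 in BM7, BM4 and BM8) than in WT (18.2, 0, 14.4 and 14.3 in BM1, BM5, BM2 and BM6, exact permutation p = 0.0286, adjusted p = 0.428), the direction of 13.6% of regions. With equal peak numbers this order was lost too, at 0 in BM7 and BM4 against 14.3 in BM6.

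Sox11 (chr12:27334264-27342574, minus strand), a SoxC factor of neurons, reached the lowest best percentile of the 8 genes in 6 libraries, all but BM3 and BM7. It held 4 in BM1, 1 in BM5, 3 in BM2, 1 in BM6, 1 in BM3, 3 in BM7, 0 in BM4 and 4 in BM8. The promoter region (chr12:27342679-27342924) had the highest mean percentile, at 22.2 in BM1, 33.2 in BM2, 6.34 in BM6, 61.3 in BM3, 39.6 in BM7 and 18.5 in BM8, with no peak in BM5 or BM4. BM3, with the fewest peaks, thus ranked it highest, and both genotypes and both populations overlapped. The numbers of peaks per 10000 were 0.335 ± 0.184 in WT and 0.351 ± 0.279 in Lats1-CKO (SD, n = 4 each, exact permutation p = 0.943).

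Sox2 (chr3:34650405-34652461, plus strand), the SoxB1 factor of pluripotent and neural stem cells, held 4 peaks in BM1, 3 in BM5, 2 in BM2, 1 in BM6, 0 in BM3, 3 in BM7, 2 in BM4 and 3 in BM8. The WT luminal pair had the most per 10000 peaks (0.550 and 0.510). Without BM3 the luminal libraries (0.461 ± 0.123, n = 3) all lay above the basal ones (0.253 ± 0.0495, n = 4, exact permutation p = 0.0286, adjusted p = 1.0), as did 1.93% of genes, and with BM3 they overlapped (exact permutation p = 0.429). With equal peak numbers and no BM3, Sox2 did not separate the populations (exact permutation p = 0.286). Its 5 regions all lay outside the transcribed gene, and the promoter region overlaps Sox2ot, the long non-coding gene in which Sox2 sits. The promoter region is printed as the site nearest to the TSS, 0.49 kb before it, with none of the 9 motifs in its letters.
Sox2 promoter, chr3:34649835-34649995: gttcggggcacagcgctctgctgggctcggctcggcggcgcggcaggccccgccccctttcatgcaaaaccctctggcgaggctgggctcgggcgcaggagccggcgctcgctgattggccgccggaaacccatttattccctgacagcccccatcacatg

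The percentile of the Sox2 promoter region was 82.3 (BM1) and 28.5 (BM5) in WT luminal and 36.6 (BM2) and 0 (BM6) in WT basal libraries, and 0 in BM3, 52.6 in BM7, 0 in BM4 and 63.3 in BM8. It was absent from libraries of 3 of the 4 groups and overlapped between genotypes (exact permutation p = 0.743) and between populations (exact permutation p = 0.571). The region with the highest mean percentile lay 11.01 kb upstream, in Sox2ot (chr3:34639333-34639451), at 61.2 in BM1, 48.2 in BM5, 48.9 in BM2, 53.4 in BM6, 60.5 in BM7 and 84.3 in BM8, with no peak in BM3 or BM4. Of 4 neural marker genes, 1 or 2 had a promoter peak in each library, and Neurod1 and Olig2 had none in any.

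**Figure D4:**
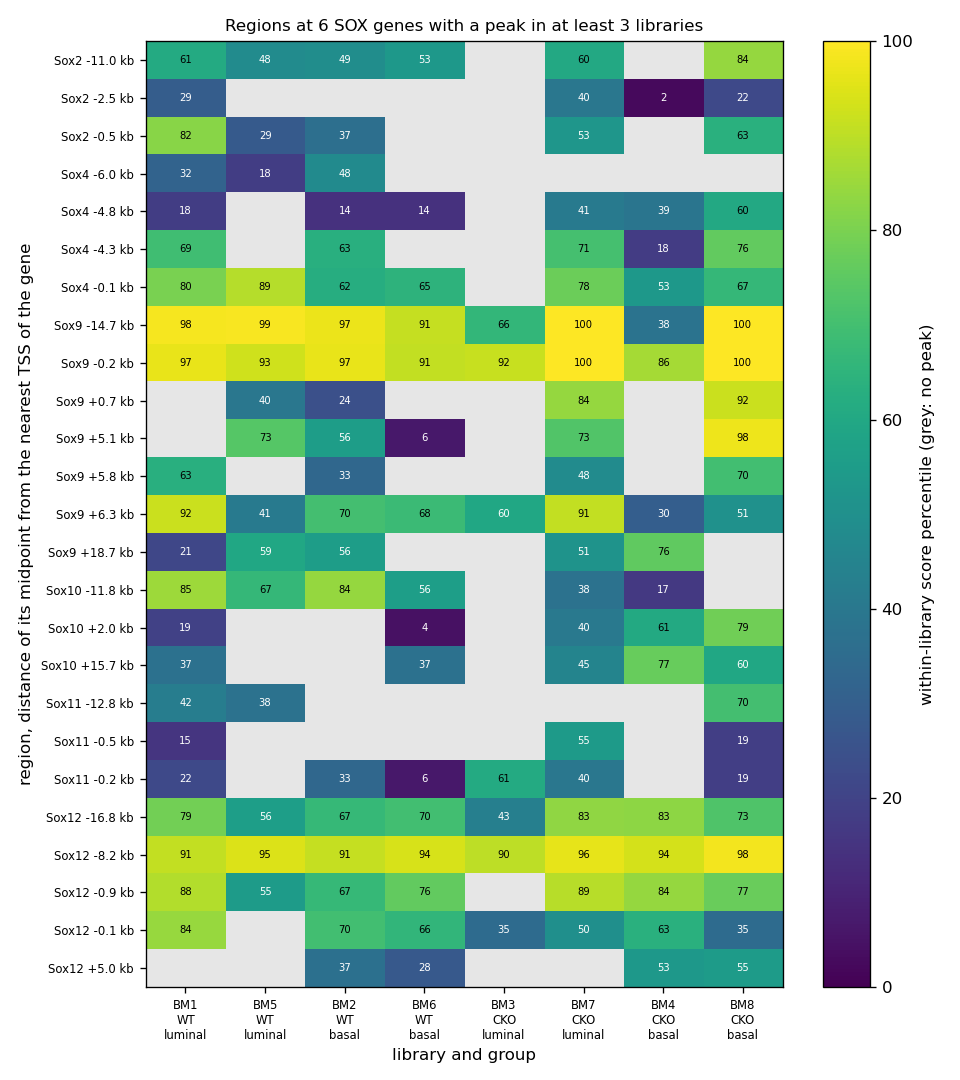
Within-library score percentile (colour and number; grey, no peak) of every region at Sox2, Sox4, Sox9, Sox10, Sox11 and Sox12 with a peak in at least 3 libraries (rows, distance in kb from the nearest TSS of the gene, negative upstream) in each library (columns, by group). The 2 wide Sox9 regions and the Sox12 region 8.23 kb upstream are filled in all 8 libraries, the Sox10 row 11.8 kb upstream is highest in the 4 WT libraries, and the last Sox12 row is filled only in the 4 basal libraries.

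All the SOX peaks together merged into 188 regions of 183173 genome-wide, of which 125 lay in introns, 22 within 1 kb of a TSS of the gene, 17 upstream, 13 downstream and 11 over exons. Most were seen in few libraries, with 91 (48.4%) in 1 library, against 44.5% of all regions, and 9 (4.79%) in all 8, against 5.95%. The 9 regions belonged to Sox5 (4), Sox9 (3) and Sox12 (2). Of the Sox12 regions, the one 16.8 kb upstream lies over the TSS of another gene, Zcchc3. Counting only the 10000 best peaks of a library by score, Sox5 had 3 to 7 peaks and Sox12 had 1 to 3 in every library, Sox9 had 2 to 4 in every library but BM4, where it had 0, and Sox2 and Sox10 had 0. Without BM3, 5 of the 74 SOX regions with peaks in enough libraries separated the genotypes (6.76%, against 14.4% of such regions genome-wide), 4 with Lats1-CKO higher. Of the same 74, 3 separated the populations (4.05%, against 4.01%), namely the downstream Sox12 region, the Sox4 promoter region and a Sox6 intron region (chr7:115866011-115866436), chosen after its values were seen, that was higher in luminal libraries. With equal peak numbers and no BM3, 3 of 51 separated the genotypes (5.88%, against 8.31%), 1 with Lats1-CKO higher. At that setting the Sox4 promoter and Sox6 intron regions did not separate the populations.

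In the central 200 bp of the SOX regions, searched on both strands, the SOX motifs AACAAAG and AACAATG were in 15 (7.98%) and 17 (9.04%) of 188 regions, beside 5.15% and 3.51% of all regions. The AP-1 motif TGANTCA was in 47 (25.0%, beside 26.1%), the TEAD motif GGAATG, of the factors that YAP and TAZ bind, in 32 (17.02%, beside 15.8%), and the E-box CAGGTG in 18 (9.57%, beside 13.6%). The RUNX motif TGTGGTT was in 7.45% (beside 8.01%) and the ETS motif CCGGAAGT in 0.532% (beside 0.701%). The AGATAAG of GATA factors was in 2.66% (beside 1.12%) and the FOX motif TGTTTAC in 4.26% (beside 3.003%). The median GC content was 48.0% in SOX regions and 49.5% in all. These shares describe letters in the windows, and most of the SOX regions come from the introns of 2 genes. In the upstream Sox10 region printed above, CAGGTG covers bases 104 to 109 on the minus strand and TGANTCA bases 116 to 122 and 144 to 150, and in the intron stretch CAGGTG covers bases 15 to 20 and TGANTCA bases 87 to 93, counted from the 5′ end of the printed strand.

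The genes with the most similar highest percentiles over the 8 libraries, by root mean square difference, were Nadk (0.859 points) and Pld3 (0.903) for Sox5, Mmachc and Ccdc163 (both 1.79) for Sox12, and Gja10 and Casp8ap2 (both 1.82) for Sox9. They were Stk39 (4.26) and Nwd2 (5.98) for Sox6, Enho (4.88) and Dnase1l3 (5.57) for Sox4, Celf3 (6.58) and Adarb2 (6.598) for Sox10, and Mdn1 (7.26) and Ldlrad2 (8.92) for Sox2. For Sox11 even the nearest genes, Pcdh8 (17.4) and Gm15737 (20.02), differed widely. The windows of the 2 genes listed for a member were allowed to overlap each other. The pairs with equal values, for Sox12 and Sox9, may therefore rest on the same peaks.

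Of 11 other SOX genes, Sox7, Sox8, Sox15, Sox18 and Sox21 had a peak in all 8 libraries, Sox13 and Sox30 in 6, and Sox1, Sox3, Sox14 and Sox17 in 1 to 3. Sox7, known for endothelium, had a highest percentile of 97.8, 99.3, 99.4 and 98.4 in the basal libraries BM2, BM6, BM4 and BM8, above the 94.8, 97.4, 43.9 and 97.3 of the luminal libraries BM1, BM5, BM3 and BM7 (exact permutation p = 0.0286, adjusted p = 1.0). Of 4 endothelial markers, 1, 1, 2 and 1 had a promoter peak in these basal libraries and 2, 0, 0 and 1 in these luminal ones, and Cdh5 had none in any, and their part was not tested. Sox21, a SoxB2 gene, had more peaks per 10000 in luminal (0.653 ± 0.165) than in basal libraries (0.312 ± 0.112, SD, n = 4 each, exact permutation p = 0.0286, adjusted p = 1.0), without overlap. The others with a peak in at least 4 libraries did not separate the groups, with 4, 3, 1 and 4 peaks of Sox8 in BM1, BM5, BM3 and BM7 and 2, 2, 3 and 6 in BM2, BM6, BM4 and BM8, 3 to 7 of Sox15, 2 to 7 of Sox18, 0 to 5 of Sox13 and 0 to 3 of Sox30. Over the 18522 genes tested, 1.03% had a highest percentile above in every basal library, as Sox7 did. More peaks per 10000 in every luminal library, as for Sox21, were found for 0.961% of these genes.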

How the data were processed

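ATAC-seq libraries of cultured MMTV-PyMT tumor cells were analysed, 2 for each of 4 groups assigned from the labels. The authors trimmed reads with cutadapt, aligned them uniquely to mm10 with Bowtie 1.0.0, removed mitochondrial and duplicate reads (Picard 2.3.0) and long fragments, called peaks in each library with MACS2 and removed blacklisted regions. The MACS2 version is 2.1.1.20160309 per the submitters' processing notes, and the study's methods name another. The deposited lists give each peak a score, at least 13 in every library, whose definition is not given in the sources used here and which is not normalized between libraries. The methods state that 1 Lats1-CKO luminal replicate, not named, was discarded for quality. All 8 libraries were kept, and each was left out in turn.

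Peaks were assigned to genes by an overlap of at least 1 bp with the GENCODE M21 gene body or the 20 kb around a TSS, and expressed per 10000 peaks and as within-library percentiles (mean rank for ties). Overlapping or touching peaks were merged into regions. Groups were compared by two-sided exact permutation tests on the difference in means (Benjamini-Hochberg over the 18522 protein-coding genes, or over all regions, with a peak in at least 2 libraries), and values whose groups do not overlap were counted. Shares of regions that separate groups are of the regions with a peak in at least as many libraries as the smaller group holds. These were 58610 regions with all 8 libraries and 74643 without BM3. Regions named were those with the highest mean percentile and nearest to a TSS of each gene, and those present in all libraries of a genotype or population and none of the other. All other regions named were chosen after their values were seen. Alternatives changed the peaks, window, TSSs, filter, overlap, scaling and libraries. The region percentiles and the equal peak numbers were added after seeing the data. The name of 1 marker gene is not reported here. The genes and lists were chosen with earlier results of these data known. The software was scipy 1.17.1, pandas 2.3.3, numpy 2.4.6 and matplotlib 3.10.9 under Python 3.11.15, and the scripts were tested on simulated data.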

Additional observations from a re-analysis of the deposited data

Results flagged for a closer look

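Of 72 groups of 4 libraries checked for 1 value far from the other 3, 9 had one, and 7 of the 9 were BM3, the library with 14753 peaks. The cut was meant to flag about 1 in 20 groups by chance. That rate was not checked for these values, which include zeros, and each library enters a genotype and a population group for the same value. BM3 had 3.39 Sox9 peaks per 10000 peaks, against 0.811 to 1.01 in the other Lats1-CKO libraries and 0.963 to 1.36 in the other luminal libraries. Its highest Sox5 percentile was 78.2, against 96.6 to 98.4 in Lats1-CKO and 96.9 to 98.9 in luminal libraries. Its highest percentile was 0 for Sox4 (77.6 to 88.8 in the other luminal libraries) and 0 for Sox6 (91.1 to 97.4), and its Sox10 peaks per 10000 were 0 (0.303 to 0.348 in the other Lats1-CKO libraries). BM4 had no Sox11 peak, a highest percentile of 0 against 58.3 to 70.2 in the other Lats1-CKO libraries. BM1 had a highest Sox2 percentile of 82.3, against 48.2 to 53.4 in the other WT libraries.

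The number of Sox5 peaks per 10000 differed between populations in how it went with genotype. The mean of Lats1-CKO minus WT was 0.554 in luminal libraries and -1.07 in basal libraries, 1.62 apart, with no overlap between genotypes in either population. Not divided by the peaks of the library, Lats1-CKO luminal libraries had 6 (BM3) and 35 (BM7) peaks against 24 and 20 in WT, and Lats1-CKO basal libraries 35 and 38 against 31 and 29, so the opposite directions depend on that scaling. The difference between these effects was not tested, and the share of all genes with such orders was not counted.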

How the results depend on the processing

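No paired analysis was possible because the replicate numbers mark no shared tumor or batch in the labels. Differences are Lats1-CKO minus WT or luminal minus basal, and the cause of a change was not tested. Depth is unknown for every library.

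The counts of SOX genes or regions that separate the groups moved as follows. Shares over all genes were counted only with all 8 libraries and without BM3, and shares over all regions also with equal peak numbers. At the other settings the SOX counts cannot be set against a genome-wide share. Leaving out 1 library in turn gave 0 to 1 genes by genotype and 0 to 2 by population for peak number, and 0 to 1 by genotype and 0 to 1 by population for the highest percentile. It gave 0 to 1 regions by presence and 1 to 5 by percentile for genotype, and 1 to 2 by presence and 1 to 5 by percentile for population. Bases under peaks, in place of peak number, separated 1 gene by population (Sox5, higher in basal). With the 10000 highest-scoring peaks, 0 regions separated the genotypes by percentile and 0 the populations by presence. Among peaks above the median score, 1 region separated the genotypes by presence (the upstream Sox10 region) and 0 the populations. Where a peak had to cover at least 50% of the region, 0 separated the genotypes by percentile. With equal peak numbers and no BM3, 1 region (upstream Sox10) separated the genotypes by presence and 3 by percentile, and 2 the populations by percentile (3.92%, against 4.92% of all such regions). No SOX gene separated the groups at this setting. A Sox5 intron region (chr6:144166145-144166795), chosen after its values were seen, separated the populations by percentile, higher in basal, with the 10000 highest-scoring peaks, among peaks above the median score, and with equal peak numbers and no BM3. It did not separate them over all 8 libraries or without BM3 alone. With equal peak numbers 1.94% of regions were higher in every basal library, and the share was not counted at the other settings where it separated them.

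Over all 8 libraries no difference in peak number of a SOX gene was past the threshold, and several turned. By population, 3 passed it under 1 alternative each (exact permutation p = 0.0286 each), Sox2 without BM3 (0.207), Sox4 without BM1 (-0.207) and Sox5 in bases under peaks (-120.1). The shares of all genes that did so without BM1 or in bases under peaks were not counted. Unscaled, the differences by genotype were 2.5 peaks for Sox5, 3.75 for Sox6, -1 for Sox9, -0.25 for Sox11 and -0.75 for Sox12, and by population -1 for Sox9 and -1.25 for Sox12. With the 10000 highest-scoring peaks they were 1.25 for Sox5 by genotype and 0.25 for Sox6 by population. With peaks above the median score they were -0.143 for Sox12 by genotype and -0.197 by population. Within 5 kb of a TSS, Sox5 gave 0.000903 by population. With equal peak numbers and no BM3 they were -0.243 for Sox9 and -0.0324 for Sox11 by genotype, and 0.0162 for Sox4 and -0.259 for Sox12 by population. Leaving out 1 library gave, by genotype, -0.552 to 0.225 for Sox5, -1.27 to 0.277 for Sox6, -0.439 to 0.420 for Sox9, -0.0935 to 0.132 for Sox11 and -0.285 to 0.250 for Sox12, and by population -0.207 to 0.00428 for Sox10 and -0.0942 to 0.441 for Sox12.

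The upstream Sox10 region kept WT higher by 55.0 to 67.5 points without 1 library in turn, and the downstream Sox12 region kept basal higher by 39.3 to 48.4 points. For the Sox12 region that direction was fixed, because it was named for a peak in every basal and no luminal library. Neither region had a peak among the 10000 highest-scoring peaks of any library. Of all values for single genes and regions, 263 kept their direction and side of the threshold, 27 turned, 6 lost the threshold and 4 passed it.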
